A study of Mus musculus with 23 samples.

Results

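The 36 genes described here code for the protein part of the cytosolic ribosome, the particle that translates messenger RNA in the cytoplasm. They were chosen by name: the symbol on the array begins with Rpl (large subunit) or Rps (small subunit) followed by a number or a p, and the ribosomal S6 kinases, whose symbols begin with Rps6k, were left out. The rule kept 36 of 8726 named genes and 37 of 9008 named oligonucleotides (oligos), with 22 large subunit genes and 14 small subunit genes. The tissue was the prefrontal cortex of 8-week-old female Balb/c mice. The tumour group received a subcutaneous dose of 100000 4T-1 cells, which derive from a mammary carcinoma of the mouse, suspended in 100 µl phosphate-buffered saline (PBS), and the control group PBS only; brains were sampled at 18, 72 or 192 h. Total RNA of a tumour-injected and a PBS-injected sample was labelled with the dyes Cy3 and Cy5 and hybridised together on in-house printed arrays, and each pair of samples was run on a second array with the dyes exchanged. This gave 14 arrays and 7 replicates: the 18 h replicates carry the numbers 4, 5 and 6, and those of the later times the numbers 3 and 4. The submitters' design text calls the replicates biological and counts 3 at 72 h, where the sample titles, poly A arrays included, number 4, so whether both 72 h replicates used here are separate samples is uncertain. How many mice a replicate holds is not stated; p-values therefore reflect the spread among these samples, part of which may be technical. The other 9 arrays, made from poly A RNA, were not analysed here.

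A ribosome has a small subunit, which holds the messenger RNA and the decoding centre, and a large subunit, which forms the peptide bond and through whose tunnel the new protein leaves. Each subunit is a core of ribosomal RNA covered by many proteins, nearly all needed in equal number, and cells make their messenger RNAs at high level in every tissue. In vertebrates most of these messenger RNAs begin with a cytosine and a run of pyrimidines, the 5′ terminal oligopyrimidine (TOP) tract, through which the kinase complex mTORC1 and the protein Larp1 set how much of them is translated. In neurons they are also carried into dendrites and axons.

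The start of the gene is shown for 7 members because the TOP tract is the sequence feature by which the family is known. RefSeq promoter entries (build GRCm38.p6, 250 bases before and 50 after the annotated start) were matched for 29 of the 36 genes. Each window holds 15 bases on either side of the boundary between the last upstream base and the first transcribed base. Capitals mark a cytosine and at least 4 further pyrimidines that follow it without a break. The first 5 genes have such a run at the first annotated base, and the last 2, named below for their values, have none within 10 bases of it.
Rpl35 (chr2:39005117-39005146, minus strand): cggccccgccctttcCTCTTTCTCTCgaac
Rpl38 (chr11:114668565-114668594, plus strand): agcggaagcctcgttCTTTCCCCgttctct
Rps6 (chr4:86857353-86857382, minus strand): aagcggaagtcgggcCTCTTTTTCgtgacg
Rps10 (chr17:27635230-27635259, minus strand): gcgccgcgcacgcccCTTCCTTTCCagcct
Rps27 (chr3:90213634-90213663, minus strand): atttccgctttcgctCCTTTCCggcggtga
Rpl37 (chr15:5116598-5116627, plus strand): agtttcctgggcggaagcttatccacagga
Rpl7l1 (chr17:46782642-46782671, minus strand): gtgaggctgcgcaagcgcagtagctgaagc

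A run at the first annotated base was present in 5 of 29 members (17.2%), 2 of 18 large and 3 of 11 small subunit genes, beside 2.49% of 27025 promoters in the table. A cytosine within 10 bases of the start, followed by at least 4 further pyrimidines, was present in 12 of 29 members (41.4%). The share over all promoters was 30.8%. Pyrimidines could also lie just before that cytosine, as they do in Rpl35. The motif CCGGAAG, on either strand and anywhere in the 300 bases, the kind of site that ETS family factors bind, was present in 9 of 29 members (31%) beside 9.12% of all promoters. Annotated starts can lie some bases from the start used in the cortex, so a window without a run says only that the letters are not there.

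The large subunit genes were Rpl3, Rpl3l, Rpl7a, Rpl7l1, Rpl8, Rpl9, Rpl10, Rpl10a, Rpl11, Rpl13a, Rpl22, Rpl24, Rpl26, Rpl27, Rpl29, Rpl32, Rpl34, Rpl35, Rpl36al, Rpl37, Rpl37a and Rpl38. The small subunit genes were Rps4l, Rps4x, Rps6, Rps7, Rps10, Rps12, Rps13, Rps15, Rps16, Rps19, Rps20, Rps25, Rps27 and Rps29. Rpl11 had 2 different oligos. The stalk proteins Rplp0, Rplp1 and Rplp2 and the ubiquitin fusion gene Rps27a are not among the members, and a spot annotated to both Rpl12 and the small nucleolar RNA gene Snora65 was left out because it names 2 genes. Among the members, 4 are paralogs by their symbols. Rpl3l, a copy of Rpl3, is known from heart and skeletal muscle. Rpl7l1 acts in assembly of the large subunit in the nucleolus. Rpl36al is a copy of Rpl36a, and RefSeq lists Rps4l as a transcribed pseudogene. All 37 oligos gave a value on at least 7 of the 14 arrays, and 8 did so in all 7 replicates. A value at a time point needed at least 2 replicates there, which 27 genes met at 18 h, 24 at 72 h and 20 at 192 h; 12 genes met it at all 3 times, and Rpl3 and Rpl9 at none. Of the 12, Rpl11 did so only with its oligos joined. Its AK014593 oligo met it at 18 and 72 h and its NM_025919 oligo at 72 and 192 h.

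The arrays held usable values for 2531 to 8033 named oligos each, and 2309 to 6703 had a value on both arrays of a swap. The marker lists had median brightness percentiles of 83.2 for neurons, 83.0 for astrocytes and 70.3 for oligodendrocytes. Those for vessels, microglia, choroid plexus and blood were 56.9, 52.2, 42 and 40.3. Within the neuron list the vesicle fusion gene Snap25 lay at percentile 97.6 and Gad2 at 57.9. The direction of every ratio rests on reading the scanner's second channel as Cy5, which the authors' deposited log ratios bear out on all 14 arrays, so it is likely rather than stated. After each array was turned to tumour over PBS, the arrays of a swap correlated over all oligos at r between -0.60 and 0.16, and 6 of the 7 correlations were negative. The labels state the dyes, and the direction was kept as labelled.

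The ribosomal protein oligos were among the brightest on the arrays. Brightness is the mean log2 intensity of both dyes, ranked as a percentile among the named oligos of an array; it depends on the oligo and the labelling as well as on the RNA, so it is not a transcript level. The median over the 36 genes was percentile 97.2, with 97.2 for the large and 97.1 for the small subunit. Of the 36 genes, 29 lay above percentile 90 and 3 below percentile 50. Rps15, a protein next to the decoding centre, was brightest, with a lowest, median and highest percentile of 96.5, 99.3 and 99.8 over 9 arrays. Rpl37a, a zinc-binding protein of the large subunit, followed with a median of 98.9 (25.5 to 99.8, 11 arrays). Rpl26, which lies near the exit of the peptide tunnel, had a median of 98.8 (4.78 to 99.8, 13 arrays). Members were ranked over different arrays. Rps15 and Rpl37a had no value on either array of 18 h replicate 5, where the family's medians were 85.4 and 66.8. Rpl26 lay at 47.8 and 4.78 on those arrays.

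The dimmest members were not all paralogs. Rpl3l had a median percentile of 23.3 and reached 50.5 at most, over 8 arrays. Rps19, the gene most often mutated in Diamond-Blackfan anaemia, a human failure of red cell formation, had a median of 26.8 (8.27 to 68.4, 10 arrays). Rpl29, a protein of the large subunit surface, had a median of 48.2 (17.8 to 88.5, 10 arrays), and Rpl7l1 one of 52.3 (4.21 to 83.8, 12 arrays). The other copies, Rpl36al with a median of 93.6 and Rps4l with 85.1, lay nearer to the rest. The oligos of Rpl11, a protein that binds the 5S RNA and, when free, the p53 regulator Mdm2, lay at 87.3 (NM_025919) and 61.9 (AK014593). The array medians of the family ran from 66.8 on the 18 h replicate 5 array with tumour RNA in Cy3 to 99.1 on the 18 h replicate 4 array with tumour RNA in Cy5.

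**Figure D1:**
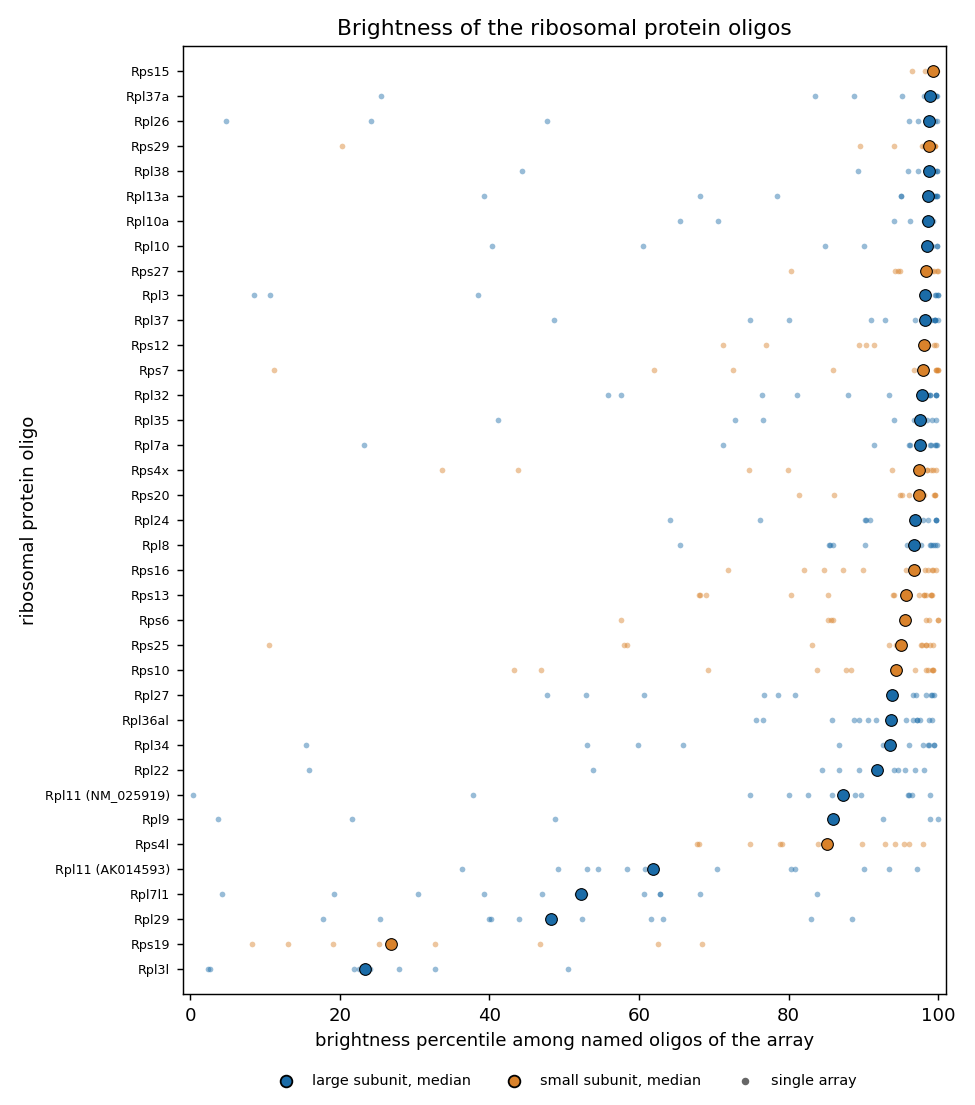
Brightness percentile (horizontal axis) of each ribosomal protein oligo (vertical axis) among the named oligos of an array; small points are single arrays, large points the median over arrays, blue for the large and orange for the small subunit. Most medians crowd above percentile 90, while Rpl3l, Rps19 and Rpl29 lie below 50 and many oligos scatter far to the left on single arrays.

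Because the oligos are bright, saturation removed many of them on some arrays. On each array of 192 h replicate 4, 12 of 37 member oligos were lost to saturation (32.4%), beside 0.691% and 0.97% of the other oligos. The arrays of 72 h replicate 4 lost 3 and 6 members, those of 18 h replicate 5 lost 2 each, and 1 array of 192 h replicate 3 lost 1. The remaining 7 arrays lost none to saturation. Spots were also unusable for reasons other than saturation. Members without any usable spot numbered 10 and 13 of 37 on the 18 h replicate 5 arrays, with tumour RNA in Cy5 and Cy3. On the 18 h replicate 4 array with tumour RNA in Cy3 they numbered 11. On the replicate 5 array with tumour RNA in Cy3, 28.0% of the other oligos had a value. The member spots lay in 26 of the 48 printed blocks on the 12 arrays of the main printing and in 27 on the 2 arrays of the other, with at most 4 and 5 in 1 block. The 2 arrays of the other printing were those of 192 h replicate 3.

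With loess normalization, most genes of the family gave more Cy5 than Cy3 signal in every replicate, whichever sample carried the dye; with each scan centred on its median and no loess, the family's median turned to -0.10 in 18 h replicate 6 and stayed above 0 in the other 6. The dye effect is the mean of the Cy5 over Cy3 log2 ratios of both arrays of a swap, in which the difference between the samples cancels. Its median over the measured member genes was 0.21, 0.24 and 0.16 in 18 h replicates 4, 5 and 6, 0.18 and 0.097 in 72 h replicates 3 and 4, and 0.13 and 0.027 in 192 h replicates 3 and 4. All 7 medians lay above 0, at 0.15 ± 0.073 (mean and SD, n = 7). With values averaged over replicates, 30 of 33 genes lay above 0, with a median of 0.13, beside 55.4% of 4692 genes and a median of 0.019. The small subunit genes had a median of 0.19 (14 of 14 above 0) and the large subunit genes 0.089 (16 of 19 above 0). This difference of -0.10 (large minus small) was not tested. By replicate the difference of medians was -0.13, -0.0015 and -0.0025 at 18 h. It was 0.063 and -0.052 at 72 h, then -0.15 and -0.035 at 192 h.

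By limma over all 4782 oligos with at least 4 replicate values, 27 oligos passed an adjusted p of 0.05 for the dye effect (0.565%), and 0 of the 34 member oligos did; their smallest adjusted p was 0.104. At an unadjusted p under 0.05, 11 member oligos were higher in Cy5, where 6.98% of all oligos were, and 1 was lower, where 6.57% were. Every measured replicate lay above 0 for 11 member oligos (Rpl10, Rpl37, Rpl38, Rps4l, Rps4x, Rps6, Rps7, Rps10, Rps16, Rps19 and Rps27), 3 large and 8 small, where 8.97% of all oligos did. Every measured replicate lay below 0 for 0 members, where 7.53% of all oligos did.

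Rpl37, a small zinc-binding protein of the large subunit, had dye effects of 0.33, 0.34 and 0.26 at 18 h, 0.33 and 0.26 at 72 h, then 0.21 and 0.045 at 192 h. All 7 were above 0, with 192 h replicate 4 lowest (fit 0.25 ± 0.057, SE, limma adjusted p = 0.104). Rpl38, which in the mouse is needed for translation of certain Hox messenger RNAs, gave 0.36, 0.42 and 0.21 at 18 h, 0.39 in 72 h replicate 3 and 0.13 in 192 h replicate 3 (0.30 ± 0.075, limma adjusted p = 0.145). Rpl10, which joins the large subunit last, in the cytoplasm, gave 0.38 and 0.21 in 18 h replicates 4 and 6, 0.28 in 72 h replicate 3 and 0.38 in 192 h replicate 3 (0.31 ± 0.081, limma adjusted p = 0.167). The pseudogene Rps4l gave 0.29, 0.12 and 0.13 at 18 h, 0.26 and 0.10 at 72 h, then 0.50 and 0.10 at 192 h (0.21 ± 0.065, limma adjusted p = 0.196). These 4 had the smallest p above 0, and none of their replicates fell below 0. Rps6, the main substrate of the S6 kinases downstream of mTORC1, gave 0.41 and 0.17 in 18 h replicates 5 and 6, 0.22 in 72 h replicate 4 and 0.41 in 192 h replicate 3 (0.30 ± 0.087, limma adjusted p = 0.211).

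Below 0 there were 3 oligos. The AK014593 oligo of Rpl11 gave -1.54, -0.40 and -0.22 at 18 h, -0.15 and -0.64 at 72 h, and 0.078 in 192 h replicate 4. Its fit was -0.48 ± 0.18 (limma adjusted p = 0.287), and 18 h replicate 4 was lowest. The NM_025919 oligo of the same gene had 0.084, 0.10, 0.047, 0.31 and -0.16 in the 5 replicates that measured it, in order of time, a fit of 0.076 ± 0.082, so the oligos of 1 gene lay on opposite sides of 0. Rpl29 (-0.059 ± 0.087) and Rpl10a (-0.0076 ± 0.085) were the other members below 0, each with replicates on both sides.

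**Figure D2:**
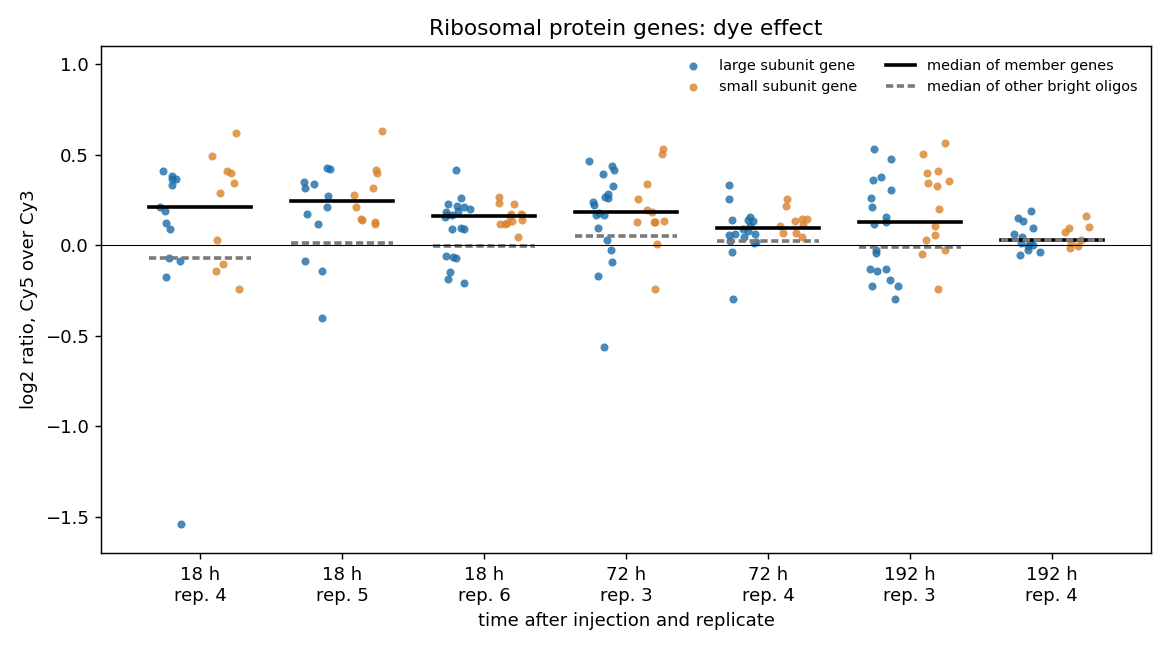
Dye effect, log2 of Cy5 over Cy3 (vertical axis), of each member gene in each replicate (horizontal axis), large subunit in blue and small in orange; black bars are the member medians and dashed grey bars the medians of the other oligos above brightness percentile 90. With loess the member medians lie between 0.027 and 0.24, above 0 in all 7 replicates (with median centring, 18 h replicate 6 is at -0.10), and the lone point at -1.54 is Rpl11.

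The same measure was read in other bright oligos. Above percentile 90, a comparison added after seeing the data, 27 of 28 member oligos had a dye effect above 0 with a median of 0.14, and 51.3% of 446 other oligos did with a median of 0.0069. Over the 7 replicates the medians of the other bright oligos ran from -0.069 to 0.051. The member median was the higher in 6 of 7 replicates, and in 192 h replicate 4 the values were 0.027 for the members and 0.030 for the others. Turned to tumour over PBS, with loess, the family's median was the higher one where Cy5 labelled the tumour sample in 7 of 7 swaps, by a median over genes of 0.053 in 192 h replicate 4 to 0.48 in 18 h replicate 5. For each gene this gap is the dye effect in another form, so it is not a further observation. In 5 of the 7 replicates the arrays of a swap put the family on opposite sides of 0 (18 h replicate 4, both 72 h replicates and 192 h replicate 3) or at 0.00067 on 1 of them (18 h replicate 6). At 18 h, replicate 5 alone had both medians clearly above 0, with 0.61 and 0.064. In 192 h replicate 4 both lay below 0, at -0.14 and -0.25.

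**Figure D3:**
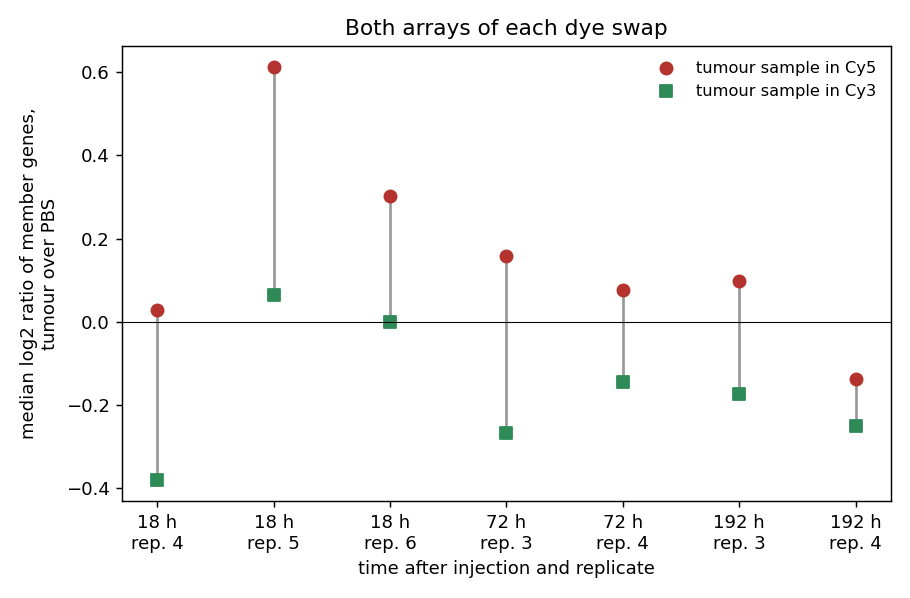
Median log2 ratio of the member genes, tumour over PBS (vertical axis), on both arrays of each swap (horizontal axis: replicates), over genes with a value on both; red circles are arrays with tumour RNA in Cy5, green squares those with tumour RNA in Cy3. With loess the circle lies above the square in all 7 swaps (with median centring the median dye effect of 18 h replicate 6 is -0.10), and the gap is smallest in 192 h replicate 4. The gap shows the dye effect in another form.

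The ratio of tumour over PBS, averaged over a swap so that the dye cancels, did not give 1 direction for the family. Its median over the measured genes was -0.18 in 18 h replicate 4 (2 of 23 genes above 0), 0.35 in replicate 5 (20 of 22) and 0.18 in replicate 6 (27 of 33). At 72 h it was -0.042 in replicate 3 (10 of 31) and -0.015 in replicate 4 (13 of 28). At 192 h it was -0.043 in replicate 3 (14 of 33) and -0.21 in replicate 4 (2 of 21). With median centring in place of loess, 18 h replicate 6 turned to -0.36 and 72 h replicate 3 to 0.056, while 18 h replicates 4 and 5 were at -0.28 and 0.27, 72 h replicate 4 at -0.21, and 192 h replicates 3 and 4 at -0.089 and -0.36. Loess within blocks put both 72 h replicates above 0, at 0.020 and 0.025. The replicates of 18 h thus lay on both sides of those of 72 h, with a mean of 0.12 ± 0.27 (SD, n = 3), beside -0.028 ± 0.019 (n = 2) at 72 h and -0.13 ± 0.12 (n = 2) at 192 h. Other oligos above percentile 90 had medians of -0.15, 0.052 and -0.0052 at 18 h, -0.021 and 0.042 at 72 h, then 0.029 and -0.049 at 192 h. The member genes lay close to those oligos in 18 h replicate 4 and 72 h replicate 3 and farther from them in 18 h replicates 5 and 6 and 192 h replicate 4.

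**Figure D4:**
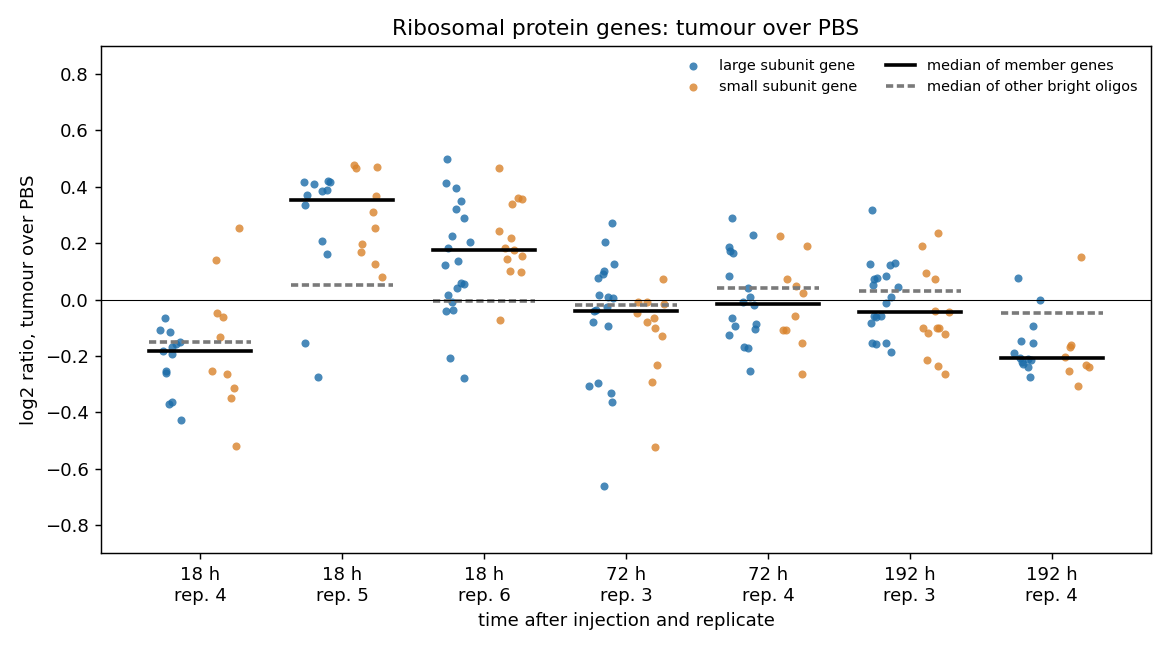
Log2 ratio of tumour over PBS (vertical axis) of each member gene in each replicate (horizontal axis), large subunit in blue and small in orange; black bars are the member medians and dashed grey bars the medians of the other oligos above brightness percentile 90. At 18 h the members lie mostly below 0 in replicate 4 and mostly above 0 in replicates 5 and 6 with loess; with median centring the median of replicate 6 is -0.36.

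At 18 h the fitted values of 21 of 27 genes lay above 0, with a median of 0.11, beside 47.6% of 3319 genes and a median of -0.0096; with each scan centred on its median and no loess, the family's median was -0.15 and 6 of 27 genes lay above 0. By limma 0 member oligos passed an adjusted p of 0.05, as did 0 of all 3366 oligos tested (0%). At an unadjusted p under 0.05, 3 members were higher, where 2.29% of all oligos were, and 0 were lower, where 3.86% were. With arrays in place of replicates as observations, 0 members passed. That fit counts both arrays of a swap, which share their samples. The swap was a block in it, with an estimated correlation of 0.0025, so these arrays counted almost as separate samples. Every measured replicate lay above 0 for 6 members and below 0 for 2, where 18.9% and 21.8% of all oligos did.

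Of the large subunit, Rpl8, which lies next to the centre where the peptide bond is formed, gave 0.39 and 0.40 in replicates 5 and 6 (fit 0.39 ± 0.14, limma adjusted p = 0.755) and was not measured in replicate 4. Rpl24, which helps to bridge the subunits, gave 0.42 and 0.12 in the same replicates (0.27 ± 0.15, limma adjusted p = 0.823). Both were thus measured only where the family was high. Rpl7l1 gave -0.25 and -0.28 in replicates 4 and 6 (-0.27 ± 0.14, limma adjusted p = 0.823), and Rpl26 -0.37 and -0.15 in replicates 4 and 5 (-0.26 ± 0.15, limma adjusted p = 0.830). Both of these kept below 0 in a replicate where most members lay above it.

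Of the small subunit, Rps7 gave 0.47 and 0.18 in replicates 5 and 6 (0.33 ± 0.15, limma adjusted p = 0.804). Rps29, a zinc-binding protein of the small subunit's head, gave 0.25 and 0.36 in replicates 4 and 6 (0.31 ± 0.14, limma adjusted p = 0.812), above 0 in the replicate where only 2 genes were. Rps6 gave 0.37 and 0.16 in replicates 5 and 6 (0.26 ± 0.15, limma adjusted p = 0.843). Neither Rps7 nor Rps6 was measured in replicate 4, so both were read only where the family was high. Rps10, at the messenger RNA entry of the small subunit, was the only small subunit gene with a fit below 0, with -0.52, 0.20 and 0.22 in replicates 4, 5 and 6 (-0.034 ± 0.14). Its replicates lay on both sides of 0, as did those of Rpl36al (-0.12, 0.33 and 0.18) and Rps4l (-0.13, 0.12 and 0.14). Without replicate 4 the family's median was 0.25, without replicate 5 it was 0.037 and without replicate 6 it was 0.060.

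At 72 h the family lay near 0: 7 of 24 genes had fitted values above 0, with a median of -0.058, beside 45.6% of 4146 genes and a median of -0.015; the median was 0.012 with loess within blocks and 0.0087 in the authors' deposited log ratios, whose base is not given. By limma 0 members passed an adjusted p of 0.05, as did 0 of 4214 oligos (0%). At an unadjusted p under 0.05, 0 members were higher, where 1.45% of all oligos were, and 1 was lower, where 1.26% were. Every measured replicate lay above 0 for 4 members and below 0 for 10, where 21.4% and 27.2% of all oligos did.

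Rpl13a, which in human cells leaves the ribosome to silence inflammatory messenger RNAs, gave -0.66 and -0.066 in replicates 3 and 4, so the replicates lay far apart (-0.36 ± 0.16, limma adjusted p = 0.998). Rpl29 gave -0.30 and -0.25 (-0.27 ± 0.15, limma adjusted p = 0.998), and these lay close together. Above 0, Rpl34 gave 0.20 and 0.29 (0.25 ± 0.17) and the muscle paralog Rpl3l 0.078 and 0.23 (0.15 ± 0.15), both with a limma adjusted p of 0.998. In the small subunit Rps7 gave -0.23 and -0.15 (-0.19 ± 0.15) and Rps13 -0.52 and 0.073 (-0.23 ± 0.19). Rps4l, the only small subunit gene with a fit above 0, gave -0.0082 and 0.22 (0.11 ± 0.14). Rps6 was measured in replicate 4 alone, at -0.11. The remaining paralogs gave 0.27 and -0.0097 (Rpl7l1) and -0.31 and 0.19 (Rpl36al), each on both sides of 0. The AK014593 oligo of Rpl11 gave -0.59 and 0.43 and the NM_025919 oligo -0.070 and -0.093, so the dimmer oligo carried the wider spread.

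At 192 h 17 of 20 genes had fitted values below 0, with a median of -0.11, beside a median of 0.017 over 2725 genes, of which 55.2% lay above 0; the family's median stayed below 0 under every other scaling tried, at -0.21 with median centring and -0.11 with loess within blocks. By limma 0 members passed an adjusted p of 0.05, as did 0 of 2755 oligos (0%). At an unadjusted p under 0.05, 0 members were higher, where 2.98% of all oligos were, and 0 were lower, where 0.363% were. With arrays as observations, where the arrays of a swap counted almost as separate samples, 3 of 7434 oligos passed and 0 of them were members. Every measured replicate lay above 0 for 1 member and below 0 for 10, where 26.5% and 22.2% of all oligos did. The shift was carried by replicate 4: without it the family's median was -0.043 and without replicate 3 it was -0.21. Replicate 3 was on the other printing, so sample and printing cannot be told apart between these replicates. In replicate 4, 12 member oligos were saturated on each array; with saturated spots kept, 35 genes had a value there with a median of -0.23, and in the fit at 192 h 5 of 34 genes lay above 0.

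Rps25, which several viral messenger RNAs need for their internal start of translation, gave -0.26 and -0.31 in replicates 3 and 4 (fit -0.29 ± 0.14, limma adjusted p = 1.00). Its replicates lay close together, and the 95% interval ran from -0.59 to 0.018. The NM_025919 oligo of Rpl11 gave -0.19 and -0.24 (-0.21 ± 0.14), Rps10 -0.21 and -0.20 (-0.21 ± 0.17) and Rpl37 -0.15 and -0.22 (-0.19 ± 0.16), all below 0 in both replicates. Above 0 lay Rps19 with 0.073 and 0.15 (0.11 ± 0.16), Rps12 with 0.24 and -0.17 (0.034 ± 0.16) and Rpl7l1 with -0.061 and 0.077 (0.0083 ± 0.14). Of these 3, only the dim Rps19 kept above 0 in both replicates. Rps6 was measured in replicate 3 alone, at -0.24. Rpl36al gave 0.13 and -0.19 and Rps4l -0.10 and -0.24. Of the members named for brightness or dye, Rps15 and Rpl38 were measured in replicate 3 alone, at -0.12 and -0.013. Each member tested at 192 h had a limma adjusted p of 1.00.

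**Figure D5:**
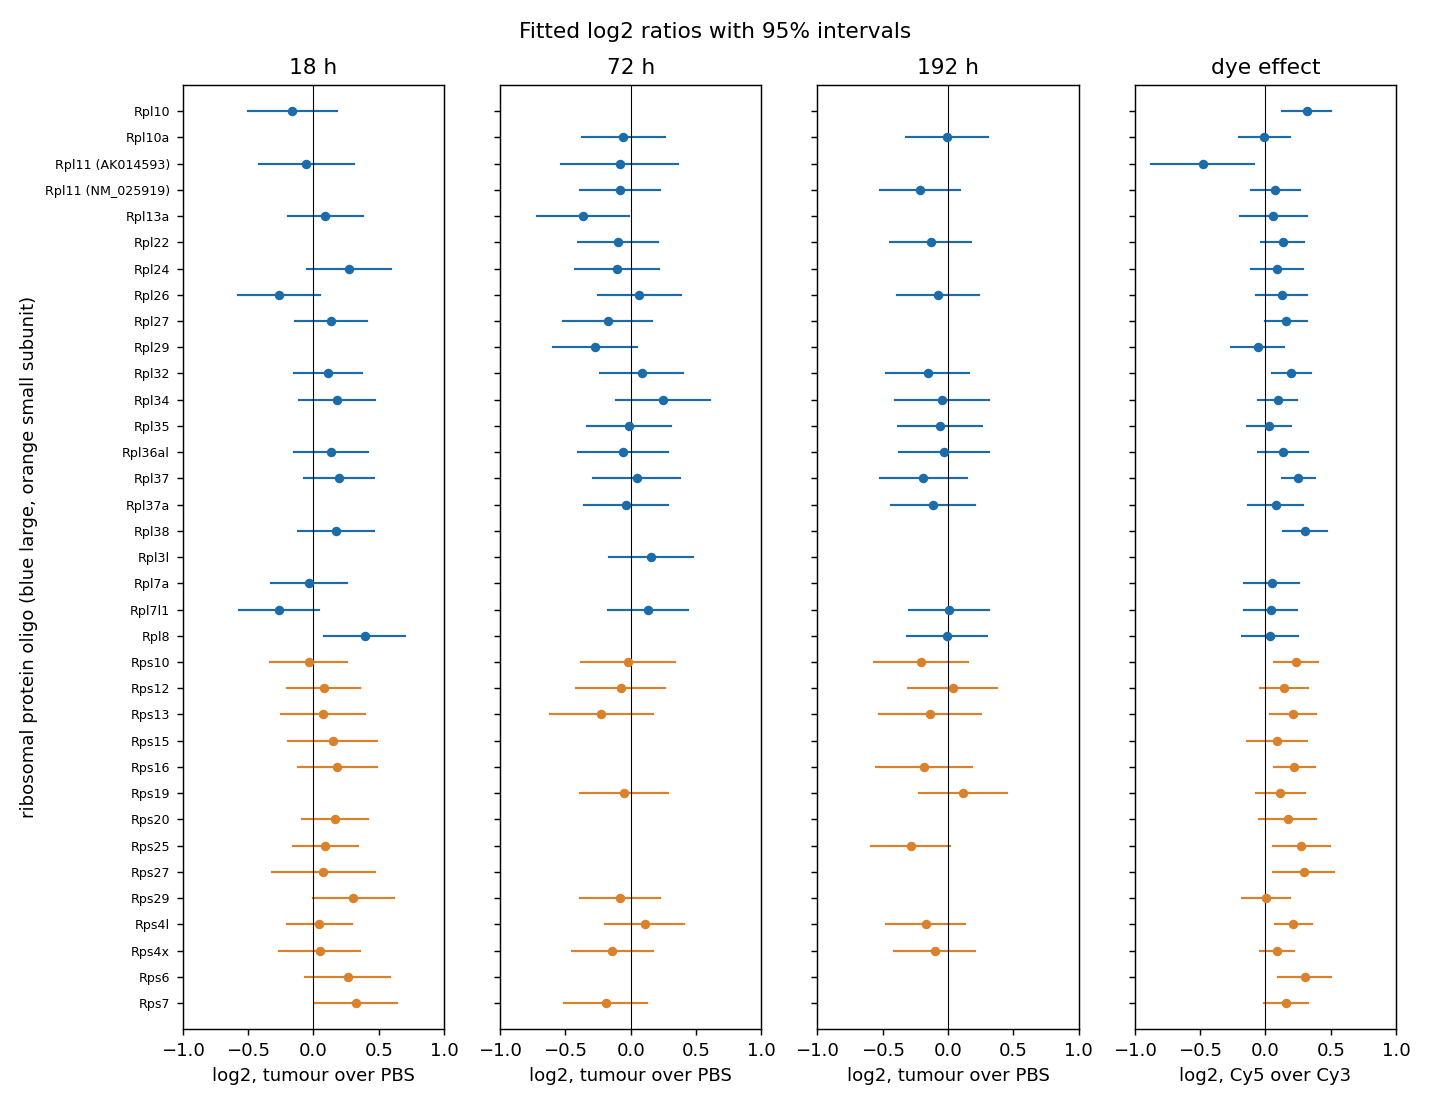
Fitted log2 ratios (horizontal axes) with 95% intervals for each ribosomal protein oligo (rows, large subunit in blue, small in orange) at 18, 72 and 192 h (tumour over PBS) and for the dye effect (Cy5 over Cy3). A row without a point was measured in too few replicates; with loess most points lie right of 0 at 18 h (with median centring the 18 h median is -0.15) and for the dye effect and left of 0 at 192 h, and 0 members passed an adjusted p of 0.05 in any panel.

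Between time points, 17 genes could be compared for 72 h minus 18 h, 14 for 192 h minus 18 h and 17 for 192 h minus 72 h. The median differences were -0.15, -0.21 and -0.076, beside 0.044, 0.059 and 0.037 over all genes, and 12, 12 and 11 genes lay below 0. In 5 of 48 comparisons of a member between times, every replicate of the later time lay below 0 and every one of the earlier above it, where 4.19% of all 5556 such comparisons did; the opposite order held for 0, where 6.71% did. By limma 0 members passed an adjusted p of 0.05 in any of the 3, as did 0 of 2034, 1596 and 1926 oligos (0% each). At an unadjusted p under 0.05, 2 members were lower at 72 h than at 18 h, where 0.983% of all oligos were, and 0 were higher, where 2.75% were. For 192 h minus 18 h the counts were 0 lower (0.752% of all oligos) and 0 higher (6.45%), and for 192 h minus 72 h 0 lower (0.987%) and 0 higher (2.13%). The 2 members were Rps7, with -0.52 ± 0.21 (limma adjusted p = 0.923), whose replicates at 18 h both lay above those at 72 h, and Rpl13a, with -0.46 ± 0.21 (limma adjusted p = 0.923). Rps7 had no value in 18 h replicate 4, where the family was low. For 192 h minus 18 h the smallest p among members was that of Rps25, with -0.38 ± 0.18 (limma adjusted p = 0.700); its 18 h replicates gave -0.048, 0.079 and 0.24, all above both 192 h replicates. The median difference of 192 h minus 72 h lay on the other side of 0 without 192 h replicate 4 (0.094) and on scan 2 alone (0.020).

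At each time the mean difference between the subunits was smaller than its SD over replicates. The large minus small difference of medians was 0.012, 0.098 and -0.055 in 18 h replicates 4, 5 and 6, 0.047 and 0.0031 in 72 h replicates 3 and 4, and 0.11 and 0.0096 in 192 h replicates 3 and 4. Its mean was 0.018 ± 0.076 (SD, n = 3) at 18 h, 0.025 ± 0.031 (n = 2) at 72 h and 0.059 ± 0.070 (n = 2) at 192 h. In 6 of 7 replicates the large subunit genes had the higher median, and in 192 h replicate 4 and 72 h replicate 4 the gap was smallest. In the fits, 9 of 14 large and 12 of 13 small subunit genes lay above 0 at 18 h, 6 of 16 and 1 of 8 at 72 h, and 1 of 12 and 2 of 8 at 192 h. For 192 h minus 72 h the large subunit genes had a median of -0.12 (2 of 11 above 0) and the small subunit genes 0.063 (4 of 6), a difference of -0.19 that was not tested. The half-width of the unadjusted 95% interval of a single member was 0.30 to 0.32 in the median at the 3 times and 0.44 to 0.45 for differences between times.

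Other genes of the translation apparatus were read from lists, by counts over the genes tested. Fau, the ribosomal protein outside the naming rule with a value, gave -0.13 ± 0.15 at 192 h. The list of initiation and elongation factors also holds the release factor Etf1 and Pabpc4. Of its genes, 6 of 6 lay above 0 at 18 h (median 0.16, lowest 0.0018 for Eif3c). At 72 h 1 of 7 did (-0.053) and at 192 h 3 of 8 (-0.019). Etf1 had the smallest p at 18 h (0.28 ± 0.15), Pabpc4 at 72 h (-0.22 ± 0.15) and Eif4e3 at 192 h (0.20 ± 0.15). Of the ribosome biogenesis genes, 7 of 13, 7 of 22 and 3 of 13 lay above 0, with Nop10 (0.33 ± 0.14), Dkc1 (-0.30 ± 0.15) and Polr1d (-0.32 ± 0.15) of smallest p. Other TOP messenger RNAs were few, with 1, 4 and 2 tested, and Npm1 gave -0.071 ± 0.12, 0.22 ± 0.14 and -0.096 ± 0.14. Of mTORC1 and the S6 kinases, 1 of 7, 4 of 12 and 5 of 10 lay above 0, with Rptor (-0.27 ± 0.18), Tbc1d7 (-0.22 ± 0.15) and Castor2 (0.67 ± 0.21) of smallest p. By limma 0 genes of these lists passed the adjusted threshold at 18, 72 or 192 h.

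The genes of the respiratory chain and ATP synthase, also bright (median percentile 93.2), had replicate medians near those of the ribosomal proteins. These were -0.18, 0.36 and 0.16 at 18 h, -0.13 and 0.019 at 72 h, then -0.045 and -0.15 at 192 h, and their dye effect had a median of 0.14 with 40 of 47 genes above 0. At each time 0 of their genes passed by limma, and Ndufb4 (0.53 ± 0.15), Cox4i1 (0.32 ± 0.16) and Ndufaf4 (0.31 ± 0.15) had the smallest p. The value of Ndufb4 is that of 1 oligo, and another oligo of this gene gave 0.013 ± 0.15 at 18 h. The mitochondrial ribosome genes, at percentile 69.5, gave 0.017, 0.27 and 0.0096 at 18 h, -0.047 and 0.052 at 72 h, then 0.013 and -0.18 at 192 h; 0 passed, their dye effect had a median of 0.11, and Mrps33 (0.23 ± 0.12), Mrpl19 (-0.23 ± 0.16) and Mrpl9 (-0.48 ± 0.26) had the smallest p. With loess, all 3 families thus had medians above 0 in 18 h replicate 5 and below 0 in 192 h replicate 4; the part of these replicates' other properties in that was not tested.

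Marker genes of cell types were read in the same replicates. The neuron markers on the array (16 genes) had medians of -0.13, -0.42 and 0.084 at 18 h, -0.022 and -0.0080 at 72 h, then -0.027 and 0.21 at 192 h, over 4 to 13 genes; with loess their median was lowest in 18 h replicate 5, where that of the ribosomal proteins was highest. In the fits 3 of 6, 4 of 8 and 7 of 9 neuron markers lay above 0 at 18, 72 and 192 h. At 18 h they ran from -0.43 (Snap25) to 0.27 (Nrgn), at 72 h from -0.27 (Gad2) to 0.25 (Syp), and at 192 h from -0.12 (Stmn2) to 0.59 (Gad2). The neuron markers had a dye effect of -0.13 in the median, opposite in sign to that of the ribosomal proteins. In bulk tissue fewer cells of a type and less RNA per cell cannot be told apart, and the part of these markers in the ribosomal protein values was not tested. Of the astrocyte markers 2 of 3, 3 of 4 and 3 of 4 lay above 0 at the 3 times, and at 18 h they ran from -0.41 (Sox9) to 0.12 (Slc1a3). Of the oligodendrocyte markers 0 of 3 lay above 0 at 72 h and 4 of 5 at 192 h. Of the microglia markers 1 of 2, 3 of 5 and 0 of 3 lay above 0, and at 72 h they ran from -0.30 (C1qb) to 0.34 (Gpr34). Of the vessel markers 0 of 2, 1 of 4 and 1 of 2 lay above 0, and at 72 h they ran from -0.53 (Eng) to 0.52 (Abcg2). Of the marker genes, 0 passed limma's adjusted test at 18, 72 or 192 h, and the choroid plexus and blood lists had at most 1 gene tested.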

How the data were processed

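Total RNA samples were hybridised in dye-swapped pairs on 14 two-colour arrays. Each array was scanned 3 times; per the file headers, a deposited scan lists 10080 spots with background-corrected intensity in channels A and B, flags and a saturation factor, a fraction. The authors' deposited value tables hold log ratios; the sources used here give neither their base nor their normalization. Genes were named from the platform annotation: 9066 probes had 1 symbol, 12 several and 1002 none. Spots with flag C in both channels with a saturation factor of at least 0.9 were kept; log2 ratios were normalized by loess (span 0.3) in each scan, then averaged over scans, spots and the arrays of a swap. Background correction by normexp was an alternative because the intensities were already corrected. limma 3.58.1 in R 4.3.3 was fitted over all oligos with at least 2 replicates per time (4 for the dye effect). Adjustment was by Benjamini-Hochberg over all oligos tested. The fits were also run on simulated data with planted changes of log2 size 1 and 2. Those sizes exceed every fitted member value, so that run does not cover changes as small as those described here. Depth is limited by the number of arrays. The members and all gene lists were chosen with earlier results of these data known. Named members are the 2 of smallest p above and below 0 per time and subunit, 4 each way for the dye effect, the 3 brightest and dimmest, Rps6, paralogs and members with several oligos; of the other lists, the gene of smallest p per time for those described; the lowest and highest cell type markers were named after their values were seen. Replicates 3 and 4 of 72 and 192 h share a number in the titles. Whether these numbers pair samples is not known here. Alternatives are given in the closing section.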

Additional observations from a re-analysis of the deposited data

Results flagged for a closer look

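Rps13 had a dye effect of -0.24 in 72 h replicate 3, apart from 0.16 to 0.40 in the other 6 replicates by Dixon's test. This was 1 of 34 member oligos with at least 4 values, and chance alone marks about 1 in 20 groups. Its ratio of tumour over PBS in the same replicate was -0.52.

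In 5 of 48 comparisons of a member between times, every replicate at the earlier time lay above 0 and every replicate at the later below 0, where 4.19% of all oligos' comparisons did; the opposite order held for 0 (6.71%), and by limma the difference itself had an adjusted p of 0.923 for the genes of 72 h against 18 h and 0.986 for those of 192 h against 72 h, so none passed. Of these, 3 set 72 h below 18 h, with differences of -0.52 for Rps7, -0.39 for Rps29 and -0.38 for Rpl24. For Rps7 and Rpl24 there was no value in 18 h replicate 4, where the family's median was -0.18. The remaining 2 set 192 h below 72 h, namely Rpl32, with 0.13 and 0.041 at 72 h and -0.16 and -0.15 at 192 h (difference -0.24), and Rpl37, with 0.0070 and 0.083 against -0.15 and -0.22 (-0.23).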

How the results depend on the processing

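Under every alternative run, the count of member oligos past an adjusted p of 0.05 was 0 in each comparison. Over all oligos the 27 called for the dye effect became 15 with normexp, 75 with median centring and 16 to 42 without 1 replicate; median centring called 8 oligos at 18 h and 1 at 192 h where the fits given called 0. The medians at 18 and 192 h moved by less than their SD over replicates, although median centring turned the 18 h median from 0.11 to -0.15; the median brightness percentile stayed between 95.03 and 97.5. The 72 h median of -0.058 moved to -0.11 with median centring, 0.012 with loess within blocks, -0.038 without the saturation limit, -0.023 and -0.020 on scan 1 and scan 3 alone, -0.079 without the dimmest 25% of spots, 0.0087 in the authors' tables, -0.079 without the 4 paralogs and 0.012 over the 8 oligos measured in all 7 replicates (chosen after seeing the data). The large minus small difference moved at 18 h to -0.072 on scan 3, at 72 h to 0.064 with median centring and 0.063 on scan 1, and at 192 h to -0.0064 with median centring, -0.018 with loess within blocks and -0.0040 in the authors' tables. The median dye effect moved to 0.26 with median centring and 0.21 over the 8 oligos. Leaving out 1 replicate at a time, the 72 h median ran from -0.058 to -0.015, the 192 h large minus small difference from 0.0096 to 0.11 and the median of 192 h minus 72 h from -0.14 to 0.094; on scan 2 alone that last median was 0.020. By replicate, median centring turned the 18 h replicate 6 ratio from 0.18 to -0.36 and its dye effect from 0.16 to -0.10. With the replicate number as a block the median of 192 h minus 72 h was -0.076 with 0 calls. The deviations of same-numbered replicates correlated at 0.0035 over 1926 oligos. This is 1 correlation of noisy differences, so it cannot decide whether the numbers pair samples. Of 1523 values of single members under the alternatives, 117 moved by more than their SD over replicates. The 1523 include fits without 1 replicate, where a member's ratio at the other times cannot move. They also include the authors' tables, whose base is not given. The cause of these moves was not tested. With 2 or 3 replicates a time and bright oligos near saturation, the unadjusted 95% half-widths of single members were 0.30 to 0.32 at a time and 0.44 to 0.45 between times, and values of 0.39 (Rpl8) did not pass the adjusted threshold.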
